A study of Homo sapiens with 18 samples.

Results

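The subunits of the mitochondrial respiratory chain and of ATP synthase were followed in 3 RNA sequencing experiments on human cell lines. Members were chosen by gene symbol. They are the NDUFA, NDUFB, NDUFC, NDUFS and NDUFV genes, SDHA to SDHD, and the UQCR, COX4 to COX8 and ATP5 genes. The mitochondrial MT-ND, MT-CO, MT-CYB and MT-ATP genes were added to them. Pseudogenes, antisense genes, readthrough genes, assembly factors and 4 genes with these opening letters that encode no subunit were left out. For SW480-P and SW480-LM3, members written under other symbols were matched by gene identifier. This gave 95 genes of the 37302 listed in any table, 82 encoded in the nucleus and 13 in mitochondrial DNA. Complex I holds 43 of them, complex II 4, complex III 10, complex IV 18 and complex V 20. The table of the SW480-P and SW480-LM3 libraries lists 79 members, none of them mitochondrially encoded; 95 are listed for the LX-2 libraries and 94 for the LV5 ones. COX4I2, COX6A2 and COX8C were not analysed here, since none of the tables used lists them.

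Complexes I and II pass electrons from NADH and succinate to ubiquinone, complex III hands them to cytochrome c, and complex IV (cytochrome c oxidase) gives them to oxygen. Complexes I, III and IV pump protons as they do so, and complex V (ATP synthase) lets the protons flow back to make ATP. Mitochondrial DNA encodes core membrane subunits of complexes I, III, IV and V, whereas complex II is wholly nuclear, so each of the other complexes needs transcripts of both genomes. Besides making ATP, the chain lets dividing cells regenerate oxidised cofactors, and cultured tumour lines vary in how far they use it rather than glycolysis.

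Each of the 6 groups had 3 libraries, 18 in all. SW480-P is the parental SW480 line, from a human colorectal carcinoma, and SW480-LM3 a subline derived from it by 3 rounds of selection through injection into the spleen. EV-XP-LX-2 and EV-XP-NID1-LX-2 are LX-2 cells, a human hepatic stellate cell line, kept for 48 h with control vesicles or with vesicles carrying NID1 (nidogen 1, a basement membrane glycoprotein). LV5-NID1 is SW480 with NID1 overexpressed and kept for 72 h with GW4869, a neutral sphingomyelinase inhibitor used to lower vesicle release; LV5 is its control, and the labels do not say whether LV5 was given GW4869 too. The letters XP are not explained, and the labels do not say whether the libraries of a group came from separate cultures, so p-values measure the spread between libraries, which may be technical. All libraries were made from poly(A) RNA, a selection that also takes up the short-tailed mitochondrial mRNAs.

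The SW480-P and SW480-LM3 values are a signal from which whole reads could be recovered, 15504205 to 18965163 per library. Since it is not scaled to gene length, levels of different genes are not comparable, and sums over members weigh longer transcripts more. The other tables hold TPM (transcript abundance scaled to gene length and library total), whose depth is unknown. NID1 read 0, 0.04 and 0.02 TPM in LV5 and 348, 352 and 379 TPM in LV5-NID1. The epithelial keratins KRT8 and KRT18 were present in all SW480 groups, but CDH1, CDX2 and VIL1 stayed under 1 TPM in LV5 and LV5-NID1. In LX-2, COL1A1 and THY1 were present and EPCAM and CDH1 were near 0. KRT8 and KRT18 were present in LX-2 too, so these keratins do not set it apart from SW480. The epithelial marker sum in LX-2 was 248 to 261 TPM with control vesicles and 199.7 to 232 TPM with NID1 vesicles. Of 7 epithelial markers 6 rose in SW480-LM3, with a summed signal of 3522 to 3789.5 in SW480-P and 13174.5 to 13887 in SW480-LM3. In LX-2, 3 of 7 stellate markers fell with NID1 vesicles (summed TPM 321 to 342 against 241 to 291), as did CD68 (43.7 and 18.6 TPM), and in LV5-NID1 the epithelial sum was 927 to 988 against 1633 to 1671 TPM. The part of these markers in the subunit results was not tested. LV5-NID1 replicate 3 stood apart: transcripts over 60% GC had a median log2 difference to the LV5 mean of -0.80 there, against -0.02 and -0.17 in replicates 1 and 2. Beside results that rest on this library, values without it are given.

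**Figure D1:**
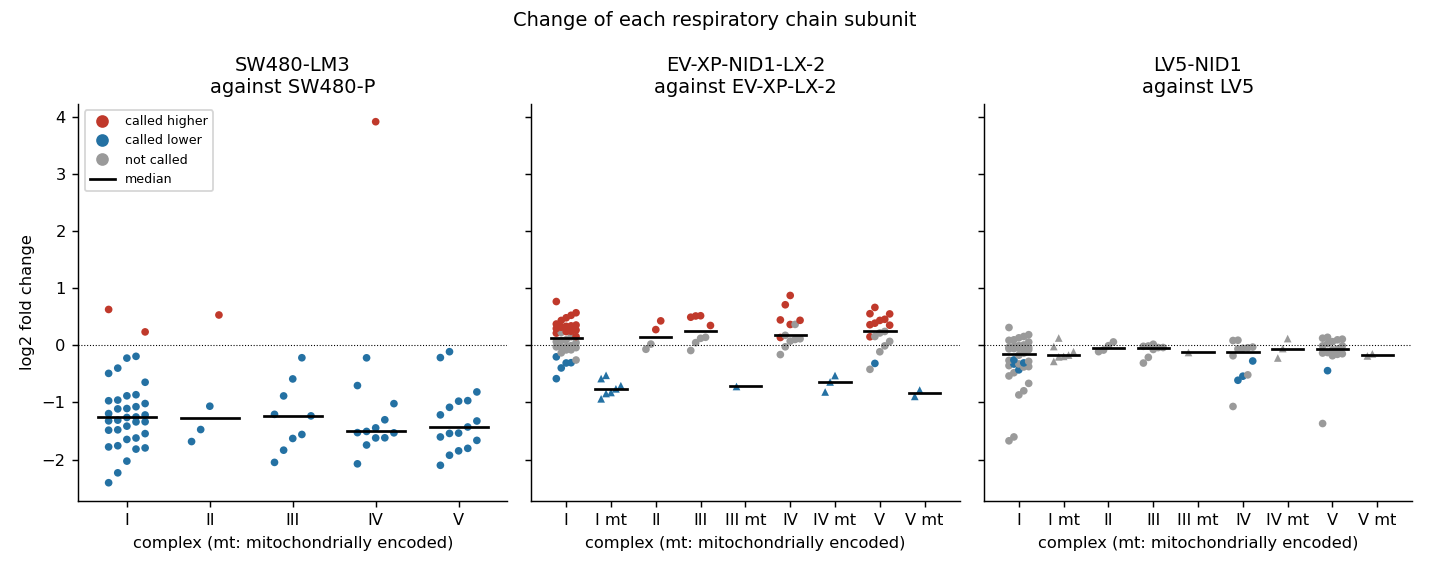
Log2 fold change of every tested subunit (y axis) by complex (x axis), with the mitochondrially encoded subunits as triangles in columns marked mt and the nuclear ones as circles, for the 3 comparisons. Red and blue points passed an adjusted p of 0.05, grey points did not, and the black bars are medians: nearly all nuclear subunits are blue in SW480-LM3, the mitochondrial triangles are blue only in LX-2, and most points are grey in LV5-NID1.

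In SW480-LM3, transcripts of the nuclear subunits were lower than in SW480-P across all 5 complexes. Of the 79 members tested, 75 fell and 4 rose (limma on the log2 scale, adjusted p under 0.05), beside 43.9% of all 14527 genes called lower and 43.9% called higher. The median log2 fold change of the members was -1.32, beside -0.004 over all genes tested, and 56 of the 75 falls were of at least 1 on the log2 scale. The 4 that rose were NDUFV1 and NDUFS1 of complex I, SDHA of complex II and the complex IV paralogue NDUFA4L2. The groups did not overlap for 78 of the 79 members, beside 87.6% of all genes tested. Summed over the members, the signal was 19139.6, 18975 and 18503 in SW480-P and 8871, 8640.5 and 8572 in SW480-LM3. By complex the summed means were 2.22-fold lower in complex I, 1.53-fold in complex II, 2.34-fold in complex III, 2.50-fold in complex IV and 2.03-fold in complex V. The signal over all genes was itself lower, at 899507 to 908688 per SW480-LM3 library against 1102964 to 1104681 in SW480-P. None of the summed signals of this comparison is scaled to these totals.

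Complex I oxidises NADH on a peripheral arm that carries flavin and iron-sulphur clusters. NDUFV1 holds the flavin where NADH is oxidised, and it read 107, 112 and 104 in SW480-P and 159, 173 and 168 in SW480-LM3 (log2 fold change 0.63 ± 0.05 (SE), adjusted p = 4.9e-09). NDUFS1, the largest iron-sulphur subunit, read 176, 176 and 196 in SW480-P and 221, 218 and 206 in SW480-LM3 (log2 fold change 0.23 ± 0.05 (SE), adjusted p = 2.8e-04). Both were higher in all 3 SW480-LM3 libraries than in any SW480-P library. The other nuclear core subunits did not follow them. NDUFV2, the partner of NDUFV1 in the same module, read 201, 204 and 215 in SW480-P and 97.9, 97.1 and 97.6 in SW480-LM3 (log2 fold change -1.08 ± 0.04 (SE), adjusted p = 1.9e-12). NDUFS3 had a log2 fold change of -1.32 ± 0.04 and NDUFS8 of -0.97 ± 0.06 (SE), and both fell. NDUFS7, next to the ubiquinone site, moved least, by -0.19 ± 0.06 (SE; adjusted p = 0.011), and did not pass with scaling to library totals (log2 fold change 0.09).

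The 29 accessory subunits of complex I, which surround the core and are needed for its assembly and stability, all fell, with a median of -1.34 and a range of -2.41 to -0.23. The most marked was NDUFS5, a small accessory subunit of the membrane arm, at 384, 389 and 376 in SW480-P and 70.3, 71.0 and 73.1 in SW480-LM3, a 5.36-fold lower mean (log2 fold change -2.41 ± 0.04 (SE), adjusted p = 2.2e-16). NDUFB10, another membrane arm subunit, read 253, 249.5 and 226 in SW480-P and 49.95, 52.1 and 50.4 in SW480-LM3 (log2 fold change -2.23 ± 0.05 (SE), adjusted p = 6.2e-15). Within each group these values lay close together, and the groups were far apart. NDUFB9, a membrane arm subunit with a high signal, read 399, 387 and 360.0 in SW480-P and 123.1, 120.1 and 127 in SW480-LM3 (log2 fold change -1.62 ± 0.04 (SE), adjusted p = 3.7e-14). NDUFA10 was the accessory subunit that moved least, at 94.3, 89.8 and 91.1 in SW480-P and 79.6, 84.5 and 71.4 in SW480-LM3 (log2 fold change -0.23 ± 0.06 (SE), adjusted p = 0.0022), and it did not pass with scaling to library totals (0.06).

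Complex II showed both directions within 4 genes. SDHA, the flavoprotein that oxidises succinate, read 199, 200.02 and 179 in SW480-P and 276, 279 and 279.9 in SW480-LM3 (log2 fold change 0.53 ± 0.04 (SE), adjusted p = 2.1e-08). SDHB, the iron-sulphur subunit bound to it, read 287, 277 and 276 in SW480-P and 88.3, 85.1 and 85.6 in SW480-LM3, a 3.24-fold lower mean (log2 fold change -1.68 ± 0.04 (SE), adjusted p = 8.3e-15). The 2 subunits therefore moved apart in every library. The membrane anchors fell as well: SDHC read 203, 209.7 and 201 in SW480-P and 94.0, 98.6 and 98.7 in SW480-LM3 (-1.07 ± 0.04 on the log2 scale) and SDHD 56.1, 60.3 and 58.0 in SW480-P and 21.5, 18.8 and 20.6 in SW480-LM3 (-1.47 ± 0.07). SDHA has near-identical pseudogenes, of which SDHAP1 read 10.04, 9.73 and 8.95 in SW480-P and 24.2, 22.7 and 24.5 in SW480-LM3, and SDHAP3 10.5, 7.40 and 9.66 and then 2.56, 1.75 and 1.84, so the copies moved in opposite directions. Reads of SDHA may be split with them. The row of SDHD, like those of NDUFA7, NDUFB8 and UQCR11, carries an identifier that the annotation used here gives to an overlapping locus, and its reads cannot be told apart from that locus.

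The promoters of one falling and one rising gene in each of complexes I and II are shown from RefSeq (GRCh38.p14), 250 bases before to 50 after the start, 5′ to 3′ on the gene's strand. Capitals mark matches, on either strand, to GCGCANGC (NRF1), CCGGAAG (GABP), AAGATGGC (YY1), GGGCGG (Sp1), ACGTG (hypoxia response element) or AAGGTCA (ERR).
NDUFB10 (fell), chr16:1959288-1959587, plus strand: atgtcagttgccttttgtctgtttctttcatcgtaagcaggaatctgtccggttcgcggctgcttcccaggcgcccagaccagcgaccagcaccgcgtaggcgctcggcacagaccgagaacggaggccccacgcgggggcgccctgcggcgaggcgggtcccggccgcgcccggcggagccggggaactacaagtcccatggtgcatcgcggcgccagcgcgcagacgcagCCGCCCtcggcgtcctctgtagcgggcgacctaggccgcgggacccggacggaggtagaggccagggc
NDUFV1 (rose), chr11:67606686-67606985, plus strand: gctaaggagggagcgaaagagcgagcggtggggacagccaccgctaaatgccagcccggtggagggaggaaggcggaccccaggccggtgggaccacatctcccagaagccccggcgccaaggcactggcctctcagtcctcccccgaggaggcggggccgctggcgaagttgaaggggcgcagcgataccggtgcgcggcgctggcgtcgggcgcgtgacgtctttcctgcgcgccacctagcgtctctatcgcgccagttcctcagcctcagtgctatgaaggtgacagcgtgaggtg
SDHB (fell), chr1:17053983-17054282, minus strand: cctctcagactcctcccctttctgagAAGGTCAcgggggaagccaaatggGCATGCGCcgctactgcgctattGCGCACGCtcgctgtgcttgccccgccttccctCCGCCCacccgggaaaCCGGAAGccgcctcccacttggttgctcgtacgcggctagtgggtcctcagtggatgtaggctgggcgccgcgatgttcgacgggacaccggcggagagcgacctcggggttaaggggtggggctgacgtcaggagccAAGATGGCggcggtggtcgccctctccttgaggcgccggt
SDHA (rose), chr5:218070-218369, plus strand: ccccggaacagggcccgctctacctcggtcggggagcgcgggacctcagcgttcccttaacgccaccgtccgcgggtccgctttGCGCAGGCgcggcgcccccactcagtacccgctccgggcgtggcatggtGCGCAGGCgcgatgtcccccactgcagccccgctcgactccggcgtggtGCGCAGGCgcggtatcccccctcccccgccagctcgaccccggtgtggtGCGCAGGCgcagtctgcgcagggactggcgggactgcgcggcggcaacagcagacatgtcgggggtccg

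The SDHB window held 6 matches, to NRF1, GABP, YY1, Sp1 and ERR letters, and the SDHA window held 4, all to the NRF1 letters. NDUFV1 had none and NDUFB10 had 1, to Sp1. Of the 82 nuclear members, 63 have a promoter in this table, 8 of them with more than 1 start. The NRF1 letters stood in 28 of the 63 (44.4%), beside 14.2% of all 27305 genes with a promoter. The shares were 31.75% against 12.2% for GABP, 19.05% against 3.52% for YY1, 15.9% against 4.80% for ERR and 63.5% against 48.3% for Sp1. The hypoxia letters were at 27.0% against 24.9%. Among members that fell in SW480-LM3, 26 of 59 held the NRF1 letters, and 1 of the 3 that rose and have a promoter did. A match is only a run of letters in this window, and NRF1, GABP (also called NRF2), YY1 and ERR are factors long known from promoters of respiratory genes.

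Complex III members all fell, 9 of 9, with a median of -1.24. UQCRH, the acidic hinge protein that helps cytochrome c dock, read 478, 473 and 459 in SW480-P and 112, 111 and 115 in SW480-LM3 (log2 fold change -2.05 ± 0.03 (SE), adjusted p = 5.3e-16). UQCRQ read 362, 361 and 365 in SW480-P and 105, 102 and 95.6 in SW480-LM3 (log2 fold change -1.84 ± 0.04 (SE), adjusted p = 6.5e-15), and the Rieske iron-sulphur protein UQCRFS1 read 187, 181 and 189 in SW480-P and 102, 99.2 and 98.5 in SW480-LM3 (log2 fold change -0.89 ± 0.04 (SE), adjusted p = 1.4e-11). In all 3 genes every SW480-LM3 library lay below every SW480-P library. UQCRC1, a core protein, changed little, at 370.4, 348 and 331 in SW480-P and 291, 304 and 305 in SW480-LM3 (log2 fold change -0.22 ± 0.04 (SE), adjusted p = 1.6e-04), and did not pass with scaling to library totals (0.0685) or quantile normalization (0.0541), while its partner UQCRC2 had -1.21 ± 0.04 (SE).

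Complex IV lost signal in 12 of 13 members, with a median of -1.51. COX5B, a zinc-binding subunit on the matrix side, read 376, 368 and 366 in SW480-P and 91.5, 84.0 and 85.7 in SW480-LM3 (log2 fold change -2.07 ± 0.04 (SE), adjusted p = 1.9e-15). COX4I1, the regulatory subunit that binds ATP, read 547, 525 and 499 in SW480-P and 180.1, 188 and 182 in SW480-LM3 (log2 fold change -1.51 ± 0.04 (SE), adjusted p = 2.8e-14). COX5A, which binds COX4I1 in the holoenzyme, changed far less, at 156, 159 and 158 in SW480-P and 139, 137 and 131 in SW480-LM3 (log2 fold change -0.22 ± 0.04 (SE), adjusted p = 8.2e-05), and did not pass with scaling to library totals (0.07). COX6A1 had -1.30 ± 0.04, COX6B1 -1.45 ± 0.05, COX7A2 -1.02 ± 0.06, COX7B -1.53 ± 0.04 and COX8A -0.71 ± 0.04 on the log2 scale (SE), and each of these fell.

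The paralogues NDUFA4 and NDUFA4L2 moved in opposite directions. NDUFA4, first described with complex I and now counted as a subunit of cytochrome c oxidase, read 423, 429.6 and 426 in SW480-P and 139, 142 and 133 in SW480-LM3 (log2 fold change -1.62 ± 0.04 (SE), adjusted p = 6.8e-15). NDUFA4L2, a paralogue known to be induced by hypoxia through HIF1A, read 1.64, 1.51 and 1.41 in SW480-P and 30.6, 37.7 and 43.4 in SW480-LM3, a 24.5-fold higher mean (log2 fold change 3.91 ± 0.13 (SE), adjusted p = 6.1e-13). Behind these values of NDUFA4L2 lie 23, 26 and 20 reads in SW480-P and 527, 644 and 801 in SW480-LM3. HIF1A mRNA read 168 in SW480-P and 97.5 in SW480-LM3 on average (log2 fold change -0.78). HIF1A protein was not measured here, and the part of HIF1A in the NDUFA4L2 rise was not tested. NDUFA4L2 was not among the members with a promoter searched above. COX7B2, a paralogue of COX7B known from testis, had 43, 34 and 30 reads in SW480-P and 0 in each SW480-LM3 library. Against a floor of 3 counts over the group its mean was at least 41.9-fold lower, and it entered the test only through SW480-P.

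**Figure D2:**
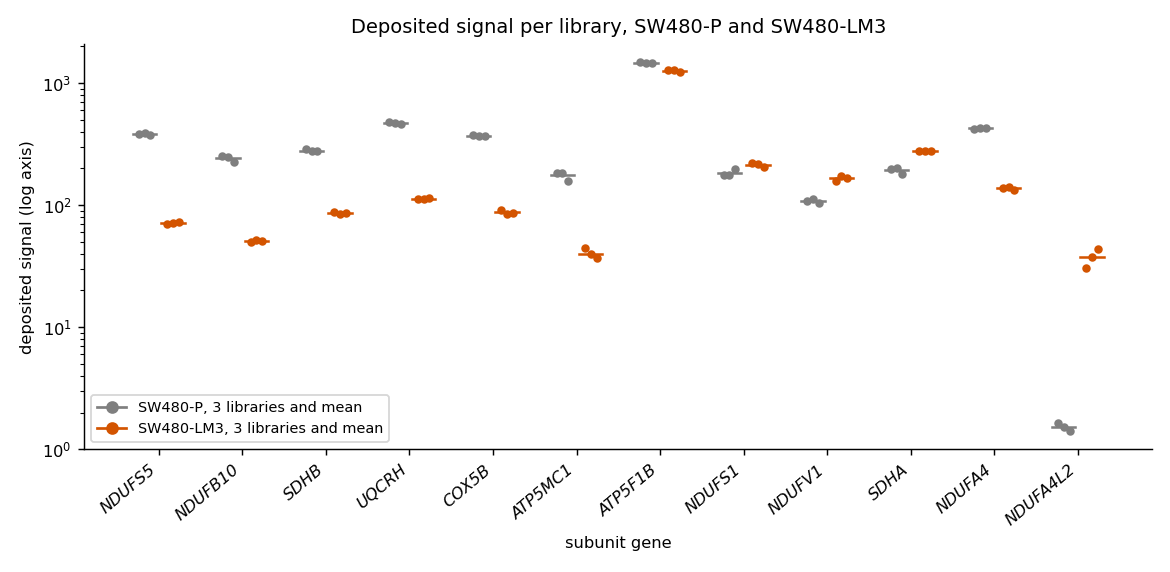
Deposited signal (y axis, log scale) of 12 subunit genes (x axis) in each of the 3 SW480-P libraries (grey) and 3 SW480-LM3 libraries (orange), with bars at the group means. The falls of NDUFS5 to ATP5MC1 separate the groups widely, ATP5F1B sits at 1458 to 1476 against 1228 to 1283, and NDUFA4L2 rises from 1.41 to 1.64 in SW480-P to 30.6 to 43.4 in SW480-LM3.

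Complex V fell in 17 of 17 members, with a median of -1.43, but unevenly between its parts. ATP5F1B, the catalytic beta subunit, which takes up the largest part of the summed complex V signal, read 1476, 1469.8 and 1458 in SW480-P and 1283, 1280.0 and 1228 in SW480-LM3 (log2 fold change -0.22 ± 0.03 (SE), adjusted p = 3.5e-06), a fall that turned into a rise with scaling to library totals (0.0718) and with quantile normalization (0.68). ATP5F1D, the delta subunit of the central stalk, was the member nearest to no change, at 104, 102 and 94.9 in SW480-P and 89.7, 95.4 and 92.8 in SW480-LM3 (log2 fold change -0.11 ± 0.05 (SE), adjusted p = 0.04), its groups overlapped, and with library totals it was called higher (0.17). ATP5F1A, the alpha subunit that alternates with beta in the catalytic head, had -0.98 ± 0.03 (SE). In contrast ATP5F1E, the small epsilon subunit, read 614, 618 and 586 in SW480-P and 186, 169 and 164 in SW480-LM3 (log2 fold change -1.80 ± 0.04 (SE), adjusted p = 2.2e-14).

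By part of the enzyme, the median log2 fold change was -0.82 over the 5 subunits of the catalytic head and its central stalk, -1.22 over the 3 ring genes and -1.54 over the 4 peripheral stalk subunits. ATP5PB, the backbone of the peripheral stalk, read 618, 626 and 642 in SW480-P and 176, 177 and 169 in SW480-LM3 (-1.85 ± 0.03, SE). Of the 3 genes that encode the same mature ring subunit c, ATP5MC1 read 185, 182 and 159 in SW480-P and 44.2, 39.7 and 36.6 in SW480-LM3 (log2 fold change -2.10 ± 0.07 (SE), adjusted p = 6.1e-13). ATP5MC2 read 463, 454 and 424 in SW480-P and 192, 192 and 190.1 in SW480-LM3 (-1.22 ± 0.04) and ATP5MC3 412, 402 and 378 in SW480-P and 186, 188 and 186 in SW480-LM3 (-1.09 ± 0.04). All 3 ring genes fell, ATP5MC1 the most. Without ATP5F1B the summed complex V signal was 2.58-fold lower in SW480-LM3, and without SDHA that of complex II was 2.66-fold lower.

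Transcript length and GC content moved with these values. The members are short, with a median of 918 nucleotides beside 2840.5 over all genes tested, and short genes were lower in SW480-LM3 generally: other genes up to 750 nucleotides had a median log2 fold change of -0.74, and those over 6000 nucleotides 0.48. In the same ranges the 29 shortest members had a median of -1.54 and the 3 longest -0.40. By GC content, other genes up to 40% had a median of -0.44, those over 60% and up to 65% 0.68, and those over 65% 0.72. Members in these GC ranges had medians of -1.63, -0.97 and -0.15. With each library's trends on length and GC content removed, 71 members fell and 6 rose, with a median of -0.88; COX5A and NDUFB6 were then called higher (0.21 and 0.22), and NDUFB3 and ATP5F1C no longer passed (-0.02 and 0.03). NDUFV1, NDUFS1, SDHA and NDUFA4L2 were still called higher with these trends removed, at 0.17, 0.13, 0.23 and 3.76. Scaling to library totals moved the median of all genes to 0.27 and that of the members to -1.04, with 69 lower and 6 higher. The part of length and GC content in the falls was not tested further.

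**Figure D3:**
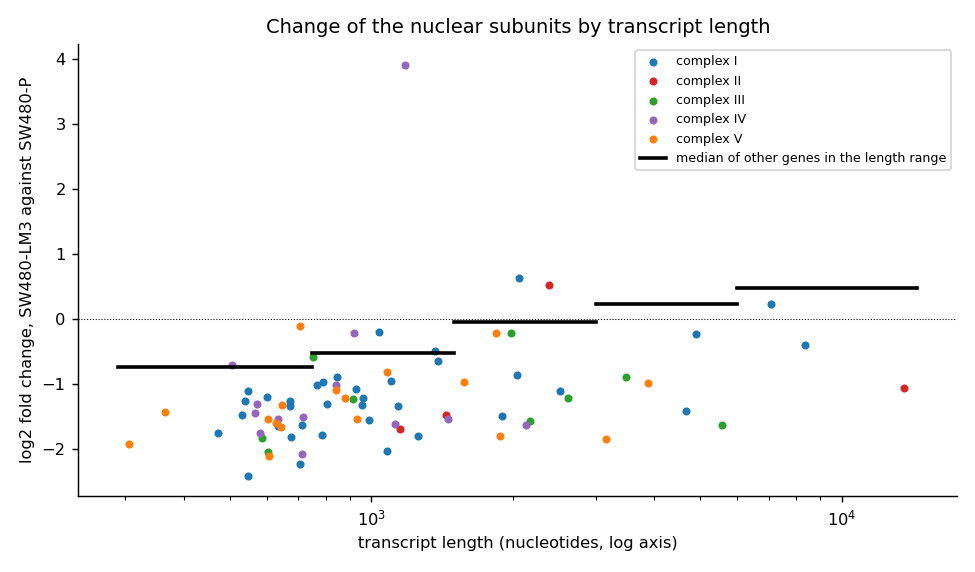
Log2 fold change of the 79 nuclear subunits in SW480-LM3 against SW480-P (y axis) by transcript length in nucleotides (x axis, log scale), coloured by complex. Black bars mark the median of all other genes in each length range, from -0.74 at the short end to 0.48 at the long end, and most subunits lie below the bar of their range.

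Lists of genes around the chain stand beside the same 43.9% of all genes called lower and 43.9% called higher. Of 48 assembly factors 38 fell and 6 rose, with a median of -0.92; COA6, a copper-site factor of complex IV, went from 193 to 24.3 and NDUFAF3, a complex I factor, from 149 to 24.4 (means). Of 15 partners of the chain outside the symbol rule, 12 fell and 2 rose: CYCS (cytochrome c) went from 807 to 208 and CYC1 (cytochrome c1) from 240.2 to 83.2. Of 28 genes for expression of mitochondrial DNA, 16 fell and 6 rose, with a median of -0.24. SLIRP, which stabilises mitochondrial mRNAs with LRPPRC, went from 242 to 45.6, whereas POLRMT, the mitochondrial RNA polymerase, went from 36.0 to 86.7. Among 12 transcription regulators of respiratory genes, 3 rose and 5 fell, with a median of -0.06; the coactivator PPARGC1A read 7.59 and 0.192.

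Mitochondrial genes themselves were not analysed in this comparison, but nuclear copies of mitochondrial sequence are listed. MTND2P28, a copy of MT-ND2, read 1242, 1325 and 1349 in SW480-P and 379, 351 and 355 in SW480-LM3 (log2 fold change -1.85 ± 0.04, SE). MTATP6P1, a copy of MT-ATP6, read 426, 459 and 425 and then 119.6, 112 and 122 (-1.88 ± 0.04). MTND1P23, a copy of MT-ND1 with a low signal, moved less, at 5.48, 6.99 and 4.23 and then 2.09, 2.52 and 2.66 (-0.92 ± 0.16). Reads of such a copy cannot be told apart from those of the near-identical mitochondrial gene.

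In LX-2 cells given NID1 vesicles, the mitochondrially encoded mRNAs were lower and many nuclear subunit mRNAs higher than with control vesicles. All 13 mitochondrial mRNAs fell, by 0.53 to 0.94 on the log2 scale with a median of -0.76. Of all 15802 genes, 24.6% were called lower. The 13 are counted 1 per gene, although MT-ND4L and MT-ND4 lie on the same mRNA and MT-ATP8 overlaps MT-ATP6. Of the 78 nuclear members tested, 37 rose and 6 fell, beside 17.8% of all genes called higher, with a median of 0.16 beside -0.05 over all genes. The groups did not overlap for the 13 mitochondrial members and for 52 of the 78 nuclear ones (66.7%), beside 55.9% of all genes. None of these changes reached 1 on the log2 scale. UQCRHL, COX6B2, COX7A1 and ATP5MGL were listed but too low to test.

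The 13 mitochondrial mRNAs held 5.95, 6.17 and 6.07% of all deposited TPM in EV-XP-LX-2 and 3.78, 3.52 and 3.69% in EV-XP-NID1-LX-2. Nuclear members held 1.88, 1.87 and 1.89% and then 2.15, 2.46 and 2.14%. Both shares separated the groups without overlap, in opposite directions. The ratio of the former sum to the latter was 3.23 ± 0.07 with control vesicles and 1.64 ± 0.18 with NID1 vesicles (SD, n = 3 each). By complex the mean ratio was 3.88 and 2.04 in complex I, 1.63 and 0.788 in complex III, 4.34 and 2.27 in complex IV and 2.20 and 1.01 in complex V. In bulk RNA, fewer mitochondria-rich cells, fewer mitochondrial transcripts per cell and more of other transcripts cannot be told apart. With TPM rescaled without the mitochondrial genes, 31 nuclear members still rose and 7 fell.

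**Figure D4:**
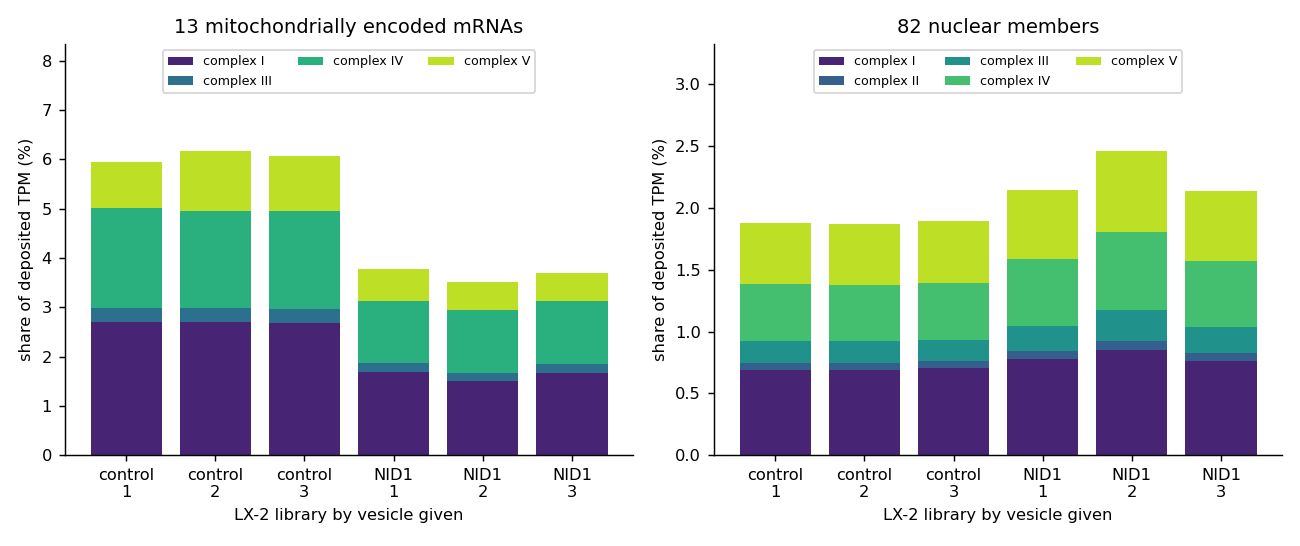
Share of all deposited TPM (y axis, percent) held by the mitochondrially encoded mRNAs (left) and by the nuclear members (right) in each LX-2 library given control or NID1 vesicles (x axis), stacked by complex. The mitochondrial share lies at 5.95 to 6.17% with control and 3.52 to 3.78% with NID1 vesicles, and the nuclear share is highest in NID1 replicate 2, at 2.46%.

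The mitochondrial complex I mRNAs encode membrane subunits of the proton-pumping arm. MT-ND3 read 6975, 7009.8 and 7059 TPM in EV-XP-LX-2 and 4125, 3832 and 3911 TPM in EV-XP-NID1-LX-2 (log2 fold change -0.83 ± 0.05 (SE), adjusted p = 1.7e-04). MT-ND4L read 10162, 9687 and 9794 TPM in EV-XP-LX-2 and 6046, 5219 and 6254 TPM in EV-XP-NID1-LX-2 (log2 fold change -0.76 ± 0.08 (SE), adjusted p = 5.6e-04), and MT-ND4, on the same mRNA, 3937, 3805 and 3667 against 2399, 2222 and 2365 TPM (log2 fold change -0.71 ± 0.05 (SE), adjusted p = 2.7e-04). Each was lower in every NID1 library than in any control library. MT-ND1 read 1720.4, 1902 and 1766 against 1293, 1098 and 1208 TPM (-0.58 ± 0.07, SE), MT-ND2 2763, 2855 and 2766 against 2019.5, 1834 and 1971 (-0.53 ± 0.05) and MT-ND5 1113, 1252 and 1355 against 675, 669 and 721 (-0.84 ± 0.08). MT-ND6 comes from the other strand of mitochondrial DNA, whose transcripts are poorly polyadenylated; it had the widest spread, at 346, 513 and 475 against 238, 181 and 276 TPM (log2 fold change -0.94 ± 0.19 (SE), adjusted p = 0.0068).

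Other mitochondrial mRNAs moved by similar amounts. MT-CYB, the only mitochondrial subunit of complex III and the cytochrome that oxidises ubiquinol, read 2924, 2777 and 2781 TPM in EV-XP-LX-2 and 1826, 1601 and 1739.9 TPM in EV-XP-NID1-LX-2 (log2 fold change -0.72 ± 0.06 (SE), adjusted p = 3.2e-04). MT-CO1, which holds the oxygen-reducing site of complex IV, read 7667, 7756 and 7859.8 TPM in EV-XP-LX-2 and 4854, 4852 and 5213 TPM in EV-XP-NID1-LX-2 (log2 fold change -0.64 ± 0.05 (SE), adjusted p = 3.0e-04). MT-CO3 read 5209, 5179 and 5204 against 2966, 2959 and 2920.0 TPM (log2 fold change -0.82 ± 0.04 (SE), adjusted p = 1.6e-04), the narrowest spread of the set. MT-CO2, the docking subunit for cytochrome c, read 7389, 6842 and 6749 against 4831, 4891 and 4791 TPM (log2 fold change -0.53 ± 0.05 (SE), adjusted p = 5.7e-04), but did not pass with quantile normalization (0.0348). MT-ATP6, the proton channel subunit of ATP synthase, read 3698, 3621 and 3578 against 2219.8, 2009 and 2100.2 TPM (log2 fold change -0.78 ± 0.05 (SE), adjusted p = 2.1e-04), and MT-ATP8 5556, 8546 and 7672 against 4258, 3828 and 3472 TPM (log2 fold change -0.90 ± 0.16 (SE), adjusted p = 0.0041). All control values of these genes lay above all NID1 values.

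MT-ATP8 and MT-ATP6 share a stretch of 46 bases, 22.2% of MT-ATP8, and MT-ND4L and MT-ND4 share 7, so reads there cannot be assigned to one of them. The longer stretch is shown from the GENCODE 29 transcripts (GRCh38, plus strand), with the start codon of MT-ATP6 in capitals.
Shared by MT-ATP8 and MT-ATP6, chrM:8527-8572: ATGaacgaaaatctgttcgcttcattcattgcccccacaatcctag
The ribosomal RNAs of the same genome, which poly(A) selection mostly removes, moved less: MT-RNR1 read 40.4, 37.2 and 37.1 TPM with control and 31.1, 31.3 and 32.1 TPM with NID1 vesicles (-0.27 ± 0.06), and MT-RNR2 268, 231 and 212 against 174, 195 and 202 TPM (-0.31 ± 0.09). The nuclear copy MTATP6P1 read 339, 365 and 356 against 249.9, 226 and 212 TPM.

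Among nuclear complex I members 16 of 36 rose and 5 fell. NDUFB3, an accessory subunit of the membrane arm, read 199, 207 and 199 TPM in EV-XP-LX-2 and 292, 430.2 and 321 TPM in EV-XP-NID1-LX-2 (log2 fold change 0.76 ± 0.13 (SE), adjusted p = 0.0036). NDUFA10 rose in the steadiest way, at 170.4, 179 and 175 against 238, 239 and 233 TPM (log2 fold change 0.43 ± 0.04 (SE), adjusted p = 4.5e-04). NDUFS5, the nuclear complex I member with the highest TPM, read 523, 546 and 550.5 against 622, 796 and 631 TPM (log2 fold change 0.33 ± 0.09 (SE), adjusted p = 0.027). Its call was lost with quantile normalization (0.18, adjusted p = 0.15), without the filter on low values and without EV-XP-LX-2 replicate 1, 2 or 3. Among those that fell, NDUFB7 read 128, 105 and 125 TPM in EV-XP-LX-2 and 83.7, 80.5 and 72.3 TPM in EV-XP-NID1-LX-2 (log2 fold change -0.59 ± 0.09 (SE), adjusted p = 0.0024), and NDUFV1 252, 235 and 243 against 203, 179.7 and 209 TPM (log2 fold change -0.31 ± 0.06 (SE), adjusted p = 0.0084). NDUFA13 had -0.20 ± 0.05 (SE) and lost its call with median-ratio scaling (-0.14) and with length and GC trends removed (-0.06). Of the 7 nuclear core subunits 3 fell and 1 rose, against 2 and 15 of the 29 accessory ones.

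Complex II anchors rose while its catalytic subunits showed no call in the main fit. SDHC read 186, 179.6 and 197 TPM in EV-XP-LX-2 and 221, 234 and 226 TPM in EV-XP-NID1-LX-2 (log2 fold change 0.27 ± 0.05 (SE), adjusted p = 0.0044) and SDHD 115, 122 and 124 against 148, 189.6 and 152 TPM (log2 fold change 0.43 ± 0.09 (SE), adjusted p = 0.01). SDHA read 168, 178 and 175 against 188, 167 and 174 TPM (0.02 ± 0.06) and SDHB 95.0, 89.1 and 95.6 against 87.0, 92.2 and 86.9 TPM (-0.07 ± 0.05), with overlapping groups. With length and GC trends removed SDHA was called higher (0.12, adjusted p = 0.033, limma). In complex III 4 of 8 members rose: UQCRH read 576, 571 and 597 TPM in EV-XP-LX-2 and 745, 989.6 and 774 TPM in EV-XP-NID1-LX-2 (log2 fold change 0.51 ± 0.10 (SE), adjusted p = 0.007), and UQCRB, UQCR10 and UQCRQ had 0.52 ± 0.14, 0.49 ± 0.10 and 0.35 ± 0.08 (SE). UQCRB and UQCRQ did not pass with quantile normalization (adjusted p = 0.061 and 0.059), and UQCRB did not pass without the filter on low values or without EV-XP-LX-2 replicate 1, 2 or 3. The core proteins UQCRC1 and UQCRC2 and the Rieske protein UQCRFS1 were not called (-0.09, 0.12 and 0.05).

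In complex IV 6 of 13 nuclear members rose and 0 fell (limma; 0 also at an unadjusted p under 0.05). COX7B, a small subunit needed for assembly, read 57.3, 70.9 and 72.2 TPM in EV-XP-LX-2 and 116, 156 and 101 TPM in EV-XP-NID1-LX-2 (log2 fold change 0.87 ± 0.16 (SE), adjusted p = 0.0052), the largest rise of all members. COX7A2 read 445, 433 and 443 against 641, 932 and 624 TPM (log2 fold change 0.71 ± 0.14 (SE), adjusted p = 0.0071), and COX6A1, the most abundant nuclear member, 984, 955 and 949 against 1210.4, 1293 and 1213 TPM (log2 fold change 0.36 ± 0.05 (SE), adjusted p = 0.0012). NDUFA4 read 56.5, 59.3 and 57.6 against 73.3, 93.4 and 70.7 TPM (log2 fold change 0.44 ± 0.10 (SE), adjusted p = 0.013). All of these were higher in each NID1 library than in any control library. COX4I1 and COX5A, which pair early in assembly, were not called (0.07 ± 0.04 and -0.03 ± 0.05), nor was NDUFA4L2 at 1.96, 2.20 and 2.45 against 2.17, 1.30 and 2.19 TPM. With length and GC trends removed COX4I1 was called higher (0.13, adjusted p = 0.048, limma). The other isoform genes COX7B2 (1.56, 0.820 and 0.540 against 0.430, 1.88 and 1.15 TPM) and COX7A1 (listed at 0 in 5 libraries and 1.09 TPM in EV-XP-LX-2 replicate 3) were near 0. COX6B1 had 0.44 ± 0.07 (SE) and rose, as did COX8A (log2 fold change 0.14 ± 0.04 (SE), adjusted p = 0.038), which lost its call under 9 alternatives, among them quantile normalization (0.04).

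Complex V had 9 of 17 nuclear members higher and 1 lower. ATP5MPL, a small subunit of the membrane part, read 127, 136 and 137 TPM in EV-XP-LX-2 and 184, 264 and 194 TPM in EV-XP-NID1-LX-2 (log2 fold change 0.66 ± 0.13 (SE), adjusted p = 0.0058). ATP5PB of the peripheral stalk read 296, 323 and 311 against 431, 506 and 430.2 TPM (log2 fold change 0.55 ± 0.07 (SE), adjusted p = 0.0014), and ATP5MF, the most abundant, 736, 852 and 808 against 1017, 1075 and 1035 TPM (log2 fold change 0.39 ± 0.06 (SE), adjusted p = 0.0027). ATP5F1B of the catalytic head read 422, 420.4 and 424 against 468, 458 and 478 TPM and rose (log2 fold change 0.15 ± 0.04 (SE), adjusted p = 0.019), a call lost with quantile normalization (0.03, adjusted p = 0.58) and with TPM rescaled without the mitochondrial genes (0.11, adjusted p = 0.053). ATP5F1A, its partner there, read 316, 301 and 300.2 against 252, 233 and 251 TPM and fell (log2 fold change -0.32 ± 0.05 (SE), adjusted p = 0.0024). Of the ring genes, ATP5MC3 rose at 153, 165 and 164 against 217, 226 and 209.9 TPM (log2 fold change 0.43 ± 0.05 (SE), adjusted p = 8.9e-04), and ATP5MC1 and ATP5MC2 were not called (0.24 ± 0.10 and -0.01 ± 0.05).

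One library and GC content moved with the nuclear rises. EV-XP-NID1-LX-2 replicate 2 was the highest of the 6 libraries for 51 of the 78 nuclear members and the lowest for 10 of the 13 mitochondrial ones. Without it 37 nuclear members rose, 36 of them the same, 8 fell, and all 13 mitochondrial mRNAs still fell with a median of -0.68. Members poorer in GC rose more: those over 40% and up to 45% GC had a median of 0.31 and those over 60% and up to 65% a median of -0.16, where other genes had 0.01 and -0.18. The part of GC content in the rises was not tested further. With trends on length and GC content removed 39 nuclear members rose and 5 fell, and the 13 mitochondrial mRNAs fell. With quantile normalization 24 nuclear members rose and 10 fell, and 12 of the 13 mitochondrial mRNAs fell.

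Of 28 genes for expression of mitochondrial DNA, 9 rose and 6 fell with NID1 vesicles, beside 17.8% of all genes called higher and 24.6% called lower. TFAM, which packages mitochondrial DNA and starts its transcription, went from 67.3 to 100.2 TPM (log2 fold change 0.57), and TFB2M, its partner at the promoter, from 12.6 to 16.4 TPM. TFB1M, TOP1MT and FASTK fell (-0.80, -0.69 and -0.67). Among 13 partners of the chain 6 rose, with cytochrome c (CYCS) going from 321 to 492 TPM. Of 48 assembly factors 11 rose and 9 fell, shares near those of all genes, with COX17, the copper chaperone of complex IV, at 48.0 and 84.2 TPM. Of 10 regulators tested 4 rose, among them PPRC1 and YY1, and 2 fell, MYC and GABPA.

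In LV5-NID1 few subunit transcripts differed from LV5. None of the 90 members tested rose and 8 nuclear members fell (limma, adjusted p under 0.05), beside 7.27% of all 15508 genes called higher and 9.32% called lower; the 8 are 10.4% of the 77 nuclear members tested. At an unadjusted p under 0.05, 2 nuclear members were higher and 18 lower, and 2 mitochondrial mRNAs were lower. Groups did not overlap for 36 of the 90, beside 43.3% of all genes. The median log2 fold change was -0.07 for nuclear and -0.15 for mitochondrial members, beside 0.01 over all genes. COX6B2, COX7B2, UQCRHL and ATP5MGL were too low to test.

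Of the 8 members called lower, 4 belong to complex I, 3 to complex IV and 1 to complex V. COX6C, a small subunit of cytochrome c oxidase, read 569, 553 and 554 TPM in LV5 and 369, 380.3 and 402 TPM in LV5-NID1 (log2 fold change -0.54 ± 0.05 (SE), adjusted p = 0.0025). COX5B read 217, 229.6 and 203 against 167, 129 and 130.2 TPM (log2 fold change -0.61 ± 0.11 (SE), adjusted p = 0.02) and COX7B 139, 153 and 154 against 117, 124 and 126 TPM (log2 fold change -0.28 ± 0.06 (SE), adjusted p = 0.031). ATP5F1E, the epsilon subunit of ATP synthase, read 63.6, 65.2 and 64.98 TPM in LV5 and 46.9, 49.0 and 45.7 TPM in LV5-NID1 (log2 fold change -0.44 ± 0.05 (SE), adjusted p = 0.0047). In each of these the 3 LV5-NID1 libraries lay below the 3 LV5 libraries. In complex I the accessory subunits NDUFB2 (296, 298 and 300.2 against 247, 229 and 190.2 TPM; -0.43 ± 0.10), NDUFA13 (339, 349 and 375 against 289, 291 and 266; -0.33 ± 0.06), NDUFA3 (62.2, 64.5 and 65.9 against 52.8, 47.5 and 54.8; -0.31 ± 0.07) and NDUFA1 (400.0, 429.5 and 437 against 333, 348 and 378; -0.26 ± 0.06) fell.

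Leaving out single libraries moved this count widely. Without LV5-NID1 replicate 3 the 8 members stayed lower and NDUFA11, UQCRB, COX6A1, COX7C, ATP5MF, ATP5MG, ATP5PD and ATP5PF joined them, with MT-CO2. Without LV5 replicate 1, 2 or 3, or without LV5-NID1 replicate 2, only 2 of the 8 stayed lower, ATP5F1E being 1 of them. The replicate block also left 2 of the 8. Without LV5-NID1 replicate 1 there were 9 falls, of which 5 were among the 8. COX5B, COX7B and NDUFB2 were among those lost without any 1 of the 3 LV5 libraries, without LV5-NID1 replicate 2 and with the replicate block. COX7B and NDUFB2 were also lost with quantile normalization (-0.17 and -0.33, adjusted p = 0.099 and 0.064, limma). NDUFA1 and NDUFA3 were lost with quantile normalization too (-0.17 and -0.23, adjusted p = 0.11 and 0.086, limma). Without LV5 replicate 3, NDUFV3 was called higher.

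The mitochondrial mRNAs were not called in LV5-NID1. With quantile normalization MT-ND1, MT-CYB and MT-ND3 were called lower (-0.31, -0.32 and -0.26) and MT-ATP6 higher (0.14). Their share of TPM was 15.4, 13.6 and 13.7% in LV5 and 12.9, 12.97 and 13.2% in LV5-NID1. The groups did not overlap, and LV5 replicate 1 was the highest library for 10 of the 13. The nuclear share was lower too, at 2.09, 2.15 and 2.17% in LV5 and 1.97, 1.95 and 1.94% in LV5-NID1. The ratio of the mitochondrial to the nuclear sum was 6.66 ± 0.62 in LV5 and 6.67 ± 0.13 in LV5-NID1 (SD, n = 3 each). MT-ATP8, the most abundant per length, read 30493, 24792 and 23335 TPM in LV5 and 25229, 23389 and 20250.1 TPM in LV5-NID1 (log2 fold change -0.19 ± 0.13 (SE), adjusted p = 0.34). MT-CO2 read 19032, 17096 and 17903 against 14763, 15206 and 16322 TPM (log2 fold change -0.22 ± 0.06 (SE), adjusted p = 0.062) and MT-ND4 11439, 9212 and 9784 against 8368, 8118 and 8427 TPM (log2 fold change -0.28 ± 0.09 (SE), adjusted p = 0.071). Both lay lower in all 3 LV5-NID1 libraries without passing the test. MT-CO1 read 12672, 13104 and 13467 against 13327, 13976 and 15301 TPM (0.12 ± 0.06) and MT-ND2 6660.0, 5717 and 5777 against 6539, 6499 and 6733 TPM (0.13 ± 0.07), with higher means in LV5-NID1. MT-ND4L, MT-CO3, MT-CYB, MT-ND1, MT-ND3, MT-ND5, MT-ND6 and MT-ATP6 had log2 fold changes of -0.20, -0.06, -0.11, -0.11, -0.17, -0.02, -0.19 and -0.15.

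Complex II was not called, with SDHA at 277, 281 and 284 against 262, 256 and 260.4 TPM (log2 fold change -0.11 ± 0.04 (SE), adjusted p = 0.1), SDHB at -0.08 ± 0.06, SDHC at -0.01 ± 0.06 and SDHD at 0.06 ± 0.06. The isoform genes were not called either. NDUFA4 read 204, 216 and 239 against 203, 197 and 235 TPM. NDUFA4L2 read 2.44, 2.54 and 2.39 against 4.53, 3.18 and 1.12 TPM. Its log2 fold change was 0.08, and 0.48 without LV5-NID1 replicate 3 (adjusted p = 0.063, limma). COX4I1, COX6B1 and COX7A2 had -0.07 ± 0.05, 0.09 ± 0.07 and -0.03 ± 0.05 (SE). UQCRH, the most abundant nuclear member of complex III, read 1004, 1010.0 and 1095 against 988, 1047 and 1113 TPM, and ATP5MF, the most abundant nuclear member of complex V, 1071, 1045 and 1085 against 909, 943 and 1085 TPM. ATP5MC1, ATP5MC2 and ATP5MC3 had 0.03 ± 0.08, 0.09 ± 0.05 and -0.14 ± 0.05. NDUFS5, the most abundant nuclear complex I member, read 603, 647 and 627 against 584, 578 and 648 TPM (-0.05 ± 0.06).

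The lowest mean log2 differences belonged to members that were lowest in LV5-NID1 replicate 3, and none of those was called in the main fit. NDUFB7 read 195, 196 and 193 TPM in LV5 and 195, 144 and 8.41 TPM in LV5-NID1 (log2 fold change -1.60 ± 1.12 (SE), adjusted p = 0.35). NDUFS7 read 68.2, 73.4 and 61.1 against 63.5, 34.8 and 3.27 TPM (log2 fold change -1.67 ± 0.96 (SE), adjusted p = 0.27), ATP5F1D 73.8, 78.7 and 77.2 against 69.4, 54.2 and 5.95 TPM (log2 fold change -1.37 ± 0.86 (SE), adjusted p = 0.3) and COX8A 563, 581 and 514 against 461, 274 and 143 TPM (log2 fold change -1.07 ± 0.40 (SE), adjusted p = 0.12). Without replicate 3 the log2 fold changes of NDUFB7, NDUFS7, ATP5F1D and COX8A were -0.22, -0.51, -0.31 and -0.63, and none passed (adjusted p = 0.24, 0.18, 0.083 and 0.079, limma). Replicate 3 was far below the rest for each, and replicate 2 was below LV5 as well. COX8A was called lower when LV5-NID1 replicate 1 was left out. The 9 nuclear members over 60% GC had a median difference to the LV5 mean of -0.14, -0.44 and -1.41 in LV5-NID1 replicates 1, 2 and 3, and the 21 members up to 45% GC had -0.11, -0.09 and 0.03. NDUFC2, at 45.4% GC, was also low there, with 236, 268 and 287 against 252, 255 and 45.3 TPM (log2 fold change -0.87, and -0.05 without replicate 3). With trends on length and GC content removed 15 nuclear and 2 mitochondrial members fell and NDUFA5 rose; 6 of the 8 falls were among them. NDUFA13 and NDUFA3 no longer passed.

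**Figure D5:**
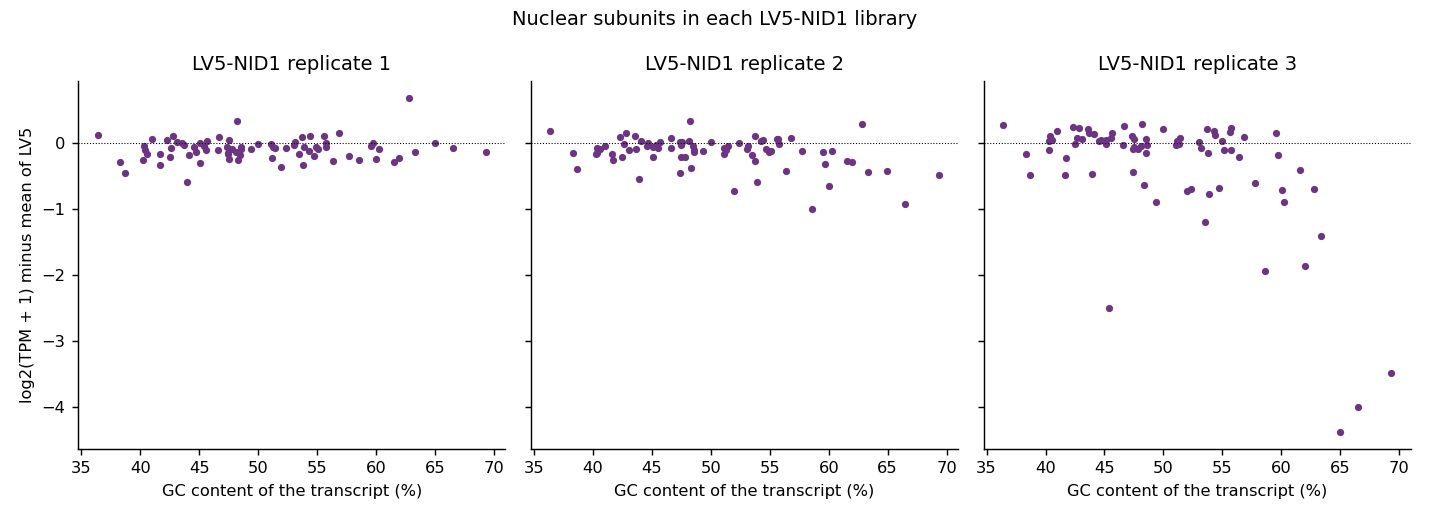
Log2(TPM + 1) of each nuclear subunit minus its mean in the 3 LV5 libraries (y axis) by GC content of the transcript in percent (x axis), 1 panel per LV5-NID1 library. Points lie between -0.60 and 0.68 in replicate 1, and in replicate 3 those over 60% GC reach down to -4.38 (NDUFB7).

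Lists of genes around the chain in LV5-NID1 stand beside 7.27% of all genes called higher and 9.32% called lower. None of 28 genes for expression of mitochondrial DNA was called (limma), with TOP1MT nearest at a log2 fold change of 0.23 (adjusted p = 0.063). Of 47 assembly factors 4 rose (NDUFAF2, NDUFAF6, SDHAF4 and BCS1L) and NDUFAF3 fell, by 0.47 on the log2 scale. Of 12 regulators PPRC1, NRF1 and GABPA rose (0.24, 0.33 and 0.31) and PPARGC1A fell (-0.40). Of 13 partners ETFDH, MICOS10 and AIFM1 fell (-0.65, -0.32 and -0.24).

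The 3 comparisons share no libraries, and their calls can be set side by side for the 79 members listed in the SW480 tables. All 37 members that rose in LX-2 with NID1 vesicles are among the 75 that fell in SW480-LM3, where 94.9% of members fell. NDUFA13 was the 1 member called lower in all 3 comparisons, but its call was lost in LX-2 with median-ratio scaling (adjusted p = 0.099) and in LX-2 and LV5-NID1 with length and GC trends removed (adjusted p = 0.43 and 0.34, limma). ATP5F1E, COX7B, NDUFA1 and NDUFB2 fell in SW480-LM3 and LV5-NID1 and rose in LX-2. The NDUFA1 calls were near the threshold in LX-2 and LV5-NID1 (adjusted p = 0.044 and 0.045, limma). Both were lost with quantile normalization (0.17 and 0.11), and the LX-2 call also with median-ratio scaling (0.065). The LX-2 call of ATP5F1E was lost with median-ratio scaling and with length and GC trends removed (both 0.051). The LV5-NID1 calls of COX7B and NDUFB2 were lost under the settings given above. NDUFV1 rose in SW480-LM3 and fell in LX-2. NDUFA4L2, NDUFS1 and SDHA were called in SW480-LM3 only, as were 30 members that fell there. Differences between experiments were not tested.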

How the data were processed

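Values of 18 poly(A) RNA-seq libraries were used as deposited. The table of SW480-P and SW480-LM3 holds deposited values read here as a signal, since the file names no unit: 100% of them were whole multiples of 1 step per library within 0.05, so they are read counts divided by 1 factor per library, and the steps gave the recovered reads. The other 2 tables name no unit either; their deposited columns sum to 999999 to 1000001 and are read as TPM. HISAT2 2.1.0 and Bowtie2 2.3.5 are named in the submitters' processing notes without a role; the counting tool, the build and the annotation behind the tables are unstated in the sources used here. Columns were matched to samples by name.

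Genes at 1 or more in at least 3 of 6 libraries were tested with limma 3.58.1 (variance trend, R 4.3.3) on log2(value + 1), so fold changes of low genes are understated, each comparison alone, 3 against 3, without a replicate block. P-values were Benjamini-Hochberg adjusted over all genes and called under 0.05. A count test was not the main test because no table holds counts; edgeR 4.0.16 and DESeq2 1.42.0 were run on recovered reads as alternatives. Other alternatives were scaling, pseudocounts 0.1 and 5, filters, the block, leaving out each library and, added after seeing the data, removal of length and GC trends. Scripts were tested on simulated data. Lengths and GC content are from GENCODE 29 (median over the basic transcripts with the best APPRIS rank) and covered 93.5 to 97.5% of the genes tested.

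The members and lists were chosen with earlier results of these data known. Named members are, per complex and genome, the most abundant, the called member with the largest rise and fall (mean of at least 5), all of complex II, all mitochondrial members and isoform genes; core subunits and members near no change were named after their values were seen. Depth is 15504205 to 18965163 recovered reads per SW480 library and unknown for TPM. One item is not reported here.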

Additional observations from a re-analysis of the deposited data

How the results depend on the processing

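In SW480-LM3, 4 members rose in every leave-one-out fit and 73 to 75 fell, edgeR and DESeq2 gave 4 and 75, and 1 rise and 56 falls reached 1 on the log2 scale. Scaling to library totals turned ATP5F1B (0.0718) and UQCRC1 (0.0685) positive, as did quantile normalization (0.68 and 0.0541). In LX-2, leaving out 1 library gave 26 to 37 rises and 17 to 21 falls. Quantile normalization left 24 rises there and moved MT-CO2 to 0.0348, rescaling without the mitochondrial genes, which removes them by construction, left 7 falls, and 0 rises and 0 falls reached 1 on the log2 scale. In LV5-NID1, leaving out 1 library gave 0 to 1 rises and 2 to 17 falls, the filter's removal left 4 falls, quantile normalization gave 4 rises and moved MT-ATP6 to 0.14, and 0 falls reached 1 on the log2 scale. Removing length and GC trends, chosen after seeing the data, gave 1 rise and 17 falls there. Where no value above shows the cause, the cause was not tested.

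Replicate numbers did not pair the libraries: same-numbered deviations correlated at -0.05 to 0.06. With the replicate number as a block, 4 members rose and 74 fell in SW480-LM3, 34 rose and 20 fell in LX-2, and 0 rose and 2 fell in LV5-NID1. The depth behind TPM is unknown, so low TPM values such as those of COX7B2, COX7A1 and UQCRHL carry no counting error here.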
